A study of Mus musculus with 6 samples.

Results

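Chromatin-modifying enzymes add or remove chemical marks on histones and DNA, and 69 of the 17067 genes in the expression tables were taken as such enzymes because their symbol begins with Kdm, Kmt, Hdac, Sirt, Dnmt, Tet, Ezh, Setd or Kat followed by a digit. They were divided into 30 writers (Kat, Kmt, Ezh, Setd and Dnmt) and 39 erasers (Hdac, Sirt, Kdm and Tet). Transcripts were measured by RNA sequencing in macrophages sorted by CD45, CD11b and F4/80 from the colon of C57BL/6 mice at 10 weeks of age. Colitis had been induced with dextran sulfate sodium (DSS), which injures the colon lining, in every animal of both groups. The groups were 3 samples from wild-type (WT) mice and 3 from Gsdmd-/- mice, which carry the disrupted gene of gasdermin D, the pore-forming protein of pyroptosis. The comparison asks how the macrophage transcriptome differs without gasdermin D during colitis. The labels used here name no colitis-free group, DSS dose, day or sex, or whether each sample is a mouse of its own. The p-values therefore speak only for the scatter of these samples, and part of it may be technical.

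Histone acetyltransferases (Kat) place acetyl groups that loosen chromatin, and deacetylases (Hdac) and the NAD-dependent sirtuins (Sirt) take them off. Histone methyltransferases (Kmt, Ezh, Setd) place methyl groups that can mark active promoters, transcribed gene bodies or silenced regions, and demethylases (Kdm) remove them. DNA methyltransferases (Dnmt) methylate cytosine and Tet enzymes oxidise the methyl group, and in macrophages several of these enzymes are known to tune inflammatory genes.

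Estimated depth was similar in both groups, from 20.0 to 21.0 M fragments for WT and from 19.7 to 21.1 M for Gsdmd-/- libraries, and no files were identical. Gsdmd itself was at 97.7, 99.4 and 97.4 FPKM (fragments scaled to transcript length and library size) in the WT samples and 28.5, 29.0 and 29.7 FPKM in the Gsdmd-/- samples, lower in each of the latter; which part of the gene is disrupted is not stated in the labels. All 15 macrophage marker genes listed for this work entered the test, with summed levels of 11970 to 12860 FPKM in WT and 14262 to 14665 FPKM in Gsdmd-/- samples. Of the 15, 8 rose and 5 fell as deposited, and 1 was higher and 12 lower with the trend on transcript length and GC removed, a scale described with the length results. Beside these counts and those of the next lists, 40.6% of all tested genes were higher and 36.9% lower as deposited. With the trend removed the shares were 30.0% and 31.4%. The genes of the sort markers were among those that fell: Itgam (CD11b) from 176.5 to 91.3, Ptprc (CD45) from 92.4 to 57.9 and Adgre1 (F4/80) from 290.8 to 215.7 FPKM on average. Fibroblast markers summed to 34.9 to 36.7 FPKM in WT and 94.9 to 96.1 FPKM in Gsdmd-/- samples, and 8 of 8 tested members of that list were higher. Summed levels were also higher in Gsdmd-/- samples for T and NK cell markers (5.66 to 6.52 FPKM in WT, 9.72 to 10.5 in Gsdmd-/-), dendritic cell markers (14.7 to 15.2 and 23.7 to 25.1) and neutrophil markers (31.2 to 35.4 and 40.8 to 44.5). They were lower for eosinophil and mast cell markers (8.78 to 9 and 4.94 to 5.3) and epithelial markers (3.23 to 3.62 and 2.17 to 2.39). Few genes of these lists entered the test: Cd4 and Lck of 10 for T and NK cells, and Cxcr2 and Csf3r of 10 for neutrophils. For dendritic cells they were Ccr7, Batf3 and Xcr1 of 7, of which Xcr1 did not pass. Siglecf, Ccr3 and Kit of 9 were tested for eosinophils and mast cells, and Cdh1 alone of 11 for epithelial cells (3.15 to 1.88 FPKM on average). The endothelial sum was lower (56.6 to 60.4 and 29.9 to 34.2) through Kdr alone, from 56.4 to 26.2 FPKM on average. Plvap rose from 0.263 to 1.19 FPKM, Cdh5 did not pass and the other 5 of 8 were not tested. Of those 5, Pecam1, Emcn, Egfl7 and Esam were higher in every Gsdmd-/- sample than in any WT sample, at 1.19 FPKM or less. For Tek the groups overlapped. B cell and plasma cell markers summed to at most 0.8 FPKM, and 0 of 7 entered the test. Proliferation genes summed to 430.2 to 437 FPKM in WT and 521 to 531 FPKM in Gsdmd-/- samples. The part of these differences in the results below was not tested, and in bulk samples fewer cells of a type cannot be told apart from less RNA per cell.

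Transcripts of chromatin-modifying enzymes were more often lower than higher in Gsdmd-/- macrophages. Of the 69 genes, 60 reached 1 FPKM in at least 3 of the 6 samples and were tested, and of these 31 fell, 15 rose and 14 did not pass (limma on log2(FPKM + 1), adjusted p under 0.05 over all genes). Calls were frequent across the transcriptome: 77.5% of the 10005 tested genes passed, 36.9% lower and 40.6% higher, beside 51.7% lower and 25.0% higher among the 60 enzymes. The median log2 change, Gsdmd-/- minus WT, was -0.16 over the enzymes and 0.03 over all tested genes. Rescaling to TPM (levels divided by their sum in each sample) moved the median of all genes to -0.17, with 2498 genes higher and 5104 lower, and the enzymes to 7 higher and 40 lower. Among 27 tested writers 14 fell and 6 rose, and among 33 tested erasers 17 fell and 9 rose, so both classes were near the same split. The falls were also larger than the rises. The mean was at or below 0.5 of the WT level in 8 enzymes (Kat2b, Kat6a, Kmt2c, Kmt2e, Kdm6a, Kdm7a, Tet2 and Tet3), a size of fall seen in 4.54% of all tested genes, and no enzyme reached a 2-fold rise, which 1.96% of all tested genes did. Among the falls, Kmt2c and Hdac9 met the filter mainly or only through WT, with 1 and 0 Gsdmd-/- samples at or over 1 FPKM. The 2 groups did not overlap for 48 of the 60 enzymes and for 79.4% of all tested genes.

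**Figure D1:**
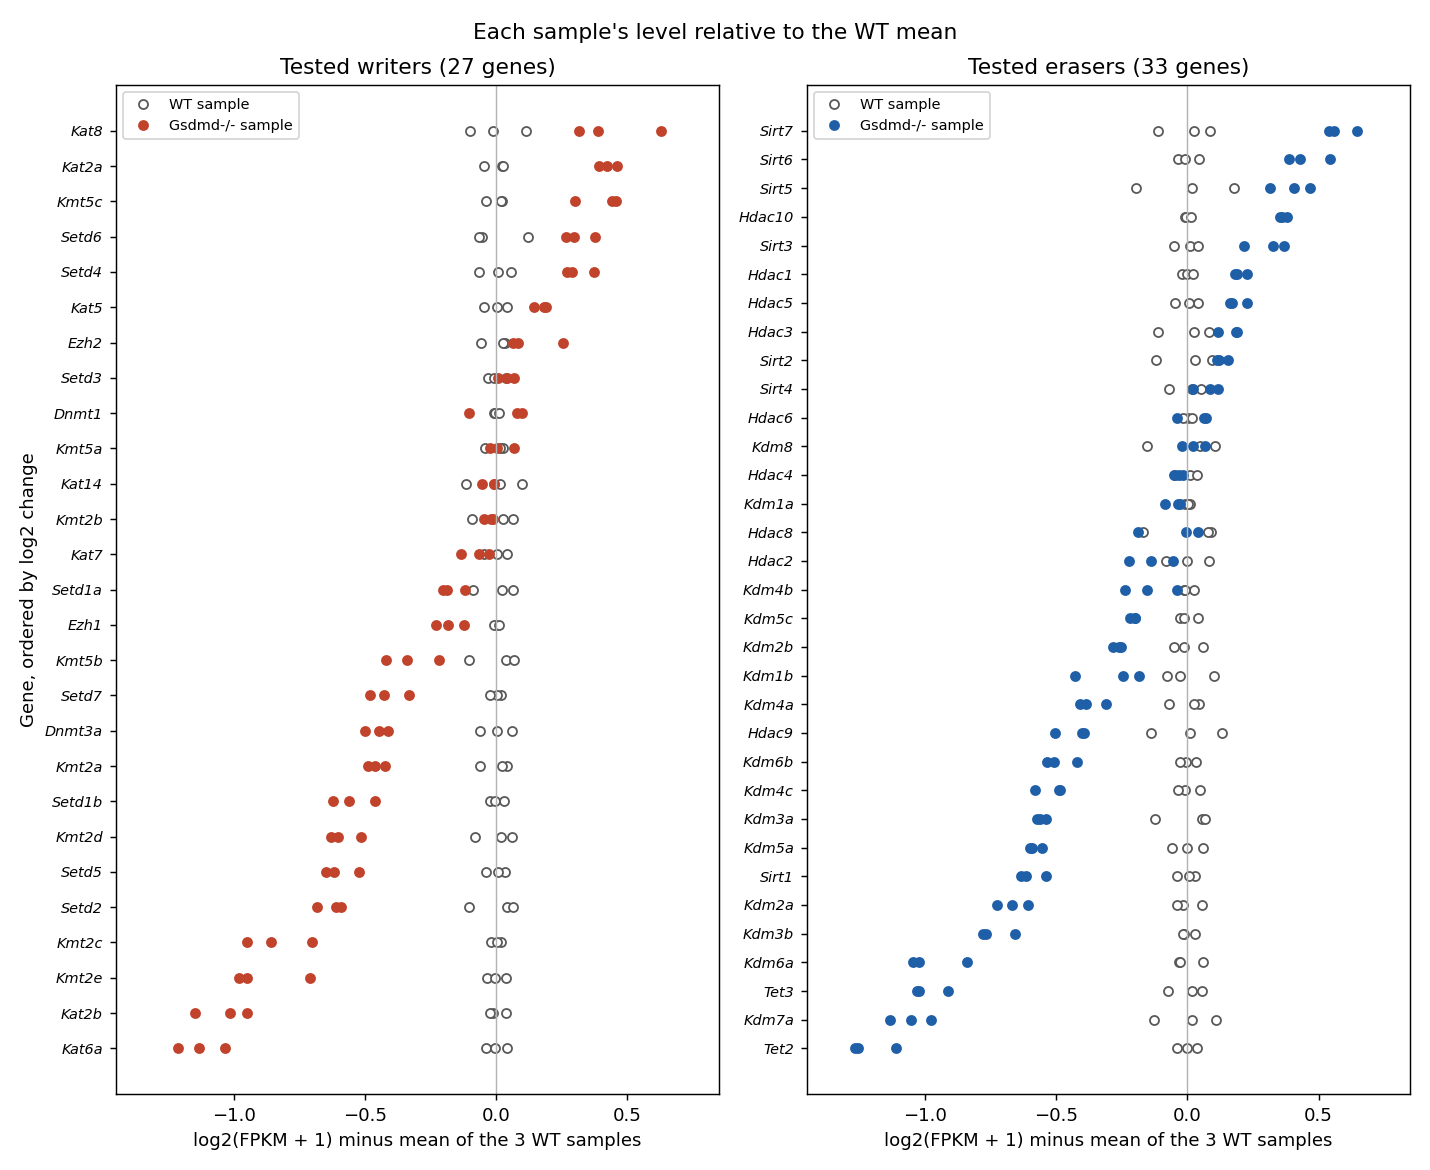
Level of each tested writer (left, 27 genes) and eraser (right, 33 genes) in each sample on the log2(FPKM + 1) scale, minus the mean of the 3 WT samples, with open circles for WT and filled circles for Gsdmd-/- samples and genes ordered by log2 change. Gsdmd-/- samples of Kat6a and Tet2 lie furthest to the left, those of Kat8 and Sirt7 furthest to the right, and the WT samples stay close to 0.

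Direction followed transcript length, which the choice of members did not use. The members' longest protein-coding transcripts had a median of 4658 bases, beside 3024 bases over all tested genes. Across the 60 enzymes the Spearman rho between log2 change and transcript length was -0.81, and it was -0.65 across 9853 tested genes with a known length. With the GC content of these transcripts rho was 0.53 across the enzymes and 0.50 across the 9853 genes. Genes share their libraries, so these correlations describe these 6 samples and have no p. Of the 19 enzymes under 3000 bases 13 rose and 0 fell, beside 63.9% higher and 14.3% lower among all tested genes of that length. Of the 18 enzymes from 3000 to 6000 bases 2 rose and 10 fell, beside 21.5% higher and 52.1% lower. Of the 23 enzymes over 6000 bases 0 rose and 21 fell, or 91.3%, beside 81.3% lower among all such genes. Hdac4 and Kmt2b were the long transcripts that did not pass.

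**Figure D2:**
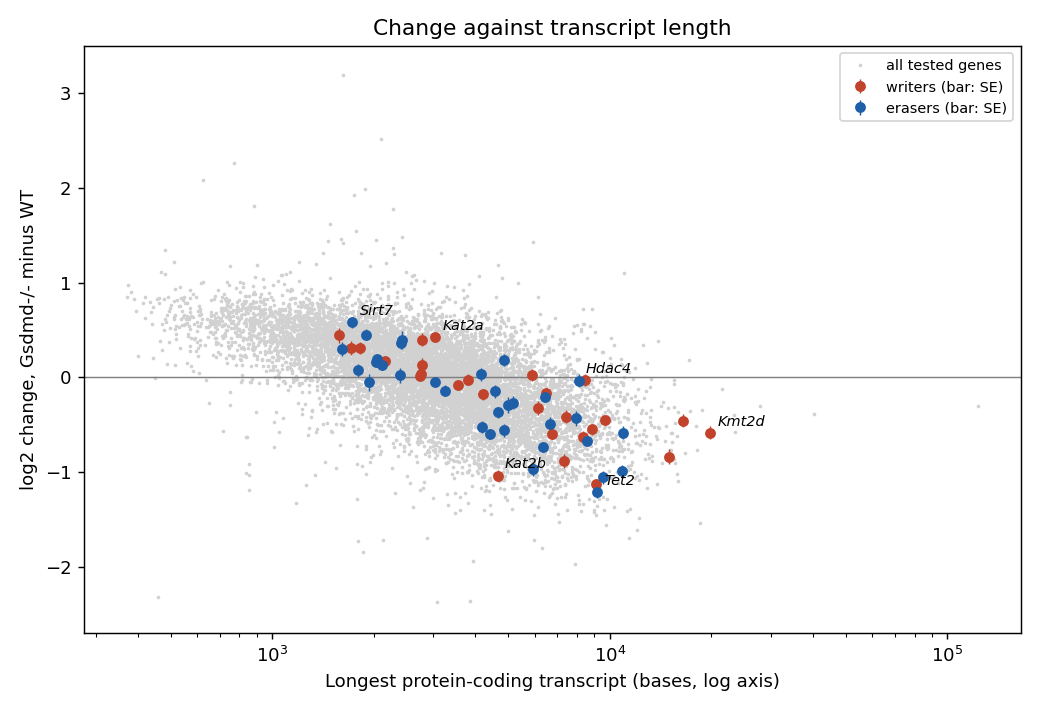
Log2 change (Gsdmd-/- minus WT) against the length of the longest protein-coding transcript on a log axis, with all tested genes in grey, writers in red and erasers in blue, and bars for the standard error. The enzymes slope downward within the grey cloud, from 13 rises under 3000 bases to 21 falls over 6000 bases.

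A smooth trend on transcript length and GC content was therefore subtracted from each sample and the test was repeated. With that trend removed, 20 of the 60 enzymes were lower and 8 higher, 33.3% and 13.3%, beside 31.4% lower and 30.0% higher, 61.3% in all, among the 9853 genes in that fit. The median of the enzymes moved from -0.16 to -0.06. On this scale the Spearman rho between log2 change and transcript length was -0.02 across the 9853 genes but -0.30 across the 60 enzymes. It was -0.36 for writers and -0.27 for erasers, so longer enzyme transcripts still tended to lower values. Of the 31 enzymes that fell as deposited 18 were also lower with the trend removed, and of the 15 that rose 4 were also higher. Erasers were lower in 13 and higher in 4 of 33, and writers lower in 7 and higher in 4 of 27. The share of fallen enzymes was therefore near that of all genes on this scale, while that of risen enzymes was below it.

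**Figure D3:**
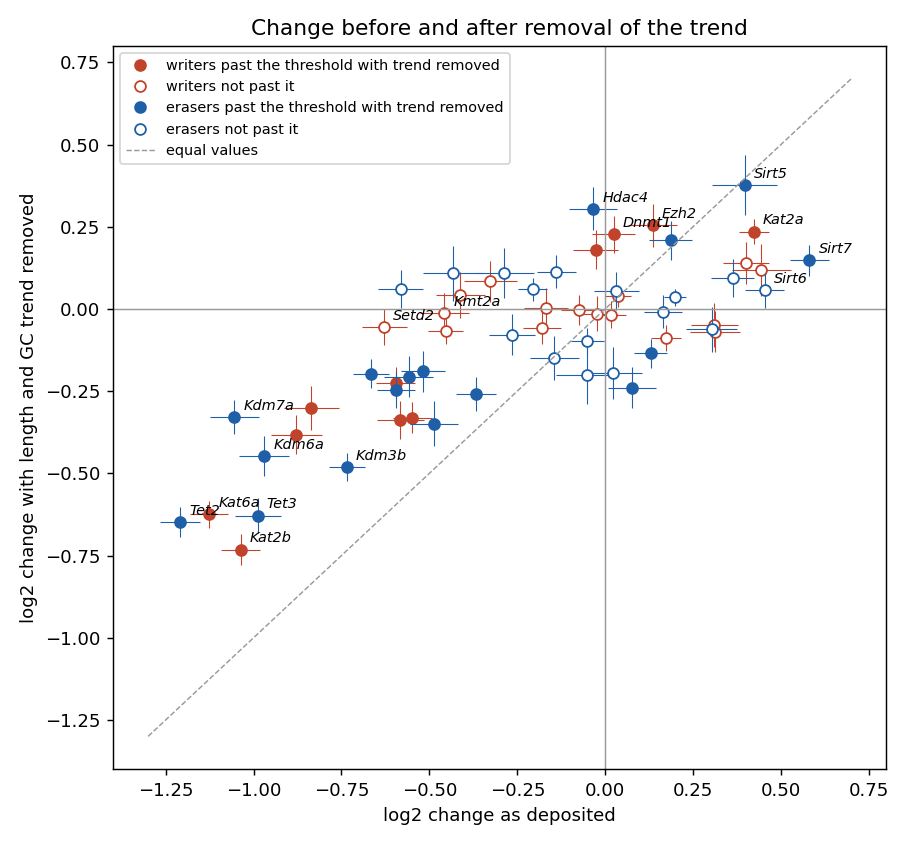
Log2 change of the 60 tested enzymes as deposited (horizontal) and with the trend on transcript length and GC removed (vertical), with bars for the standard error, writers in red, erasers in blue, and filled symbols for adjusted p under 0.05 with the trend removed. Kat2b, Tet2, Tet3 and Kat6a lie lowest on the vertical axis, and Setd2 and Kmt2a lie near 0 on the vertical axis.

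Sequences before a listed start site are shown for 3 falls and 3 rises among the genes described next. They are the largest changes among enzymes with a promoter sequence, not overlapping groups and a mean of at least 2 FPKM in a group. RefSeq promoters in GRCm38.p6 were found for 57 of the 69 enzymes, and the first start site listed was used. Each line gives the 250 bases before the start site, 5′ to 3′ on the gene's strand. That site lay inside the annotated gene for Tet2 (gene end 133545136), Sirt6 (gene end 81627792) and Kat2b (gene start 53566774). The Tet2 window therefore lay wholly within its gene, and the windows of Sirt6 and Kat2b partly. Capitals mark matches on either strand to any of 5 motifs. The GC box was searched as GGGCGG and the second motif, bound by the factor NF-Y, as CCAAT. The TATA box was searched as TATAAA, the motif of ETS factors as CCGGAAGT, and the E-box of many helix-loop-helix factors as CACGTG.
Tet2 (fell; chr3:133544391-133544640, minus strand): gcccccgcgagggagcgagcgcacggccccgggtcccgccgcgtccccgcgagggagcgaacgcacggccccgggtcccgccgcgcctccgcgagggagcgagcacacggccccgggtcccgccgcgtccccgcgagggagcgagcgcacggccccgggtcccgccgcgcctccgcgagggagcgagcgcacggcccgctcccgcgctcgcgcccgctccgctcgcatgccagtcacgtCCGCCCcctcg
Kdm7a (fell; chr6:39206774-39207023, minus strand): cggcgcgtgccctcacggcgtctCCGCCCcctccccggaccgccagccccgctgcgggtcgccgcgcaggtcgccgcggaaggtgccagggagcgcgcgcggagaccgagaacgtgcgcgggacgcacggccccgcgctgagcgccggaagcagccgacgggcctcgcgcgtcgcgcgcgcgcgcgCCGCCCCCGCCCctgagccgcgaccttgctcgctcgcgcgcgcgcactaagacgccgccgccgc
Kat2b (fell; chr17:53566721-53566970, plus strand): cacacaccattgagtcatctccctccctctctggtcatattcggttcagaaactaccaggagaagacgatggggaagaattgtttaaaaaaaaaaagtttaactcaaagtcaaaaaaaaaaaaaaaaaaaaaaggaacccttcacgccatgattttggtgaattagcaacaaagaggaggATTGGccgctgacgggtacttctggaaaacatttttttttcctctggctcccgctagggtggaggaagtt
Sirt7 (rose; chr11:120625015-120625264, minus strand): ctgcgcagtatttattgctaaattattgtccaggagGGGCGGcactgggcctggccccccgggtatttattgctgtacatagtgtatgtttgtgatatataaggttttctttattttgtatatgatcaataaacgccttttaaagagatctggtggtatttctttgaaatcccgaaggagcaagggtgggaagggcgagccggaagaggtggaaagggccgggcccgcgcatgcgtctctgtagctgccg
Sirt6 (rose; chr10:81627567-81627816, minus strand): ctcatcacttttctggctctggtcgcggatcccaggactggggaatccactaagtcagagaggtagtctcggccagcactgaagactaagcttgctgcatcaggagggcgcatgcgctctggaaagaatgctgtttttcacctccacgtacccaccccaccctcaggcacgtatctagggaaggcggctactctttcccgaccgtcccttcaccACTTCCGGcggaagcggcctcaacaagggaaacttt
Kat8 (rose; chr7:127912267-127912516, plus strand): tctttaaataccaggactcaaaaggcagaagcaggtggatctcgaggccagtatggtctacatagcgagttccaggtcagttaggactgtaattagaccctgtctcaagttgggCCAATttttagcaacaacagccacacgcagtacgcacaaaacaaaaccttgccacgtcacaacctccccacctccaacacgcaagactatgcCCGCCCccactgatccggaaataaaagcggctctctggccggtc
The windows of Tet2 and Kdm7a held 51 and 56 CpG dinucleotides, and that of Kat2b, with its runs of adenines, held 6. The printed windows of enzymes that rose held 12 (Sirt7), 13 (Sirt6) and 10 (Kat8). Over all windows of each group the median was closer, at 18.5 for enzymes that fell and 13 for those that rose. It was 15 for the 57 enzyme windows and 16 for those of tested genes. The GC box was present in 56.1% of the 57 enzyme windows and in 60.3% of 8113 windows of tested genes. CCAAT was present in 5 of the 24 windows of enzymes that fell and in 7 of the 12 of enzymes that rose, beside 36.7% of tested genes. The ETS motif was in 0 of those 24 and in 3 of those 12, beside 6.74% of tested genes. TATAAA was in 5.26% of enzyme windows and 6.19% of those of tested genes, and CACGTG in 5.26% and 8.91%. Each motif was counted once per window, no motif contains another, and a match is a description of these letters only.

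Among acetyltransferases, Kat6a and Kat2b fell and Kat2a, Kat5 and Kat8 rose, of 7 tested genes. In TPM 2 of the 7 rose and 4 fell. Family counts here and below stand beside 40.6% of all tested genes higher and 36.9% lower as deposited. The counts over all 10005 tested genes in TPM were 2498 higher and 5104 lower. With the trend removed 30.0% of all genes were higher and 31.4% lower. Kat6a, which encodes the MYST acetyltransferase MOZ (chromosome 8 at 22859442 to 22943259 in GRCm38.p6), was at 21.4, 20.2 and 20.7 FPKM in the WT samples and 8.92, 8.38 and 9.61 FPKM in the Gsdmd-/- samples. Every Gsdmd-/- sample lay below every WT sample, and the mean fell to 0.432 of WT (log2 change -1.13, SE 0.0541, adjusted p = 5.47e-09). Kat2b, which encodes PCAF, an acetyltransferase of coactivator complexes (chromosome 17 at 53566774 to 53672721), was at 21.9, 21.2 and 21 FPKM in the WT samples and 10.1, 9.1 and 10.6 FPKM in the Gsdmd-/- samples. It fell to 0.464 of WT (log2 change -1.04, SE 0.0554, adjusted p = 1.14e-08), again with groups well apart. With the trend removed these falls were -0.62 and -0.73 (adjusted p = 5.25e-07 and 4.23e-07), so Kat2b had the most negative value of the 60 enzymes on that scale.

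Kat2a, the close paralog of Kat2b that encodes GCN5 (chromosome 11 at 100704746 to 100712485), went the other way. It was at 16.3, 16.4 and 15.5 FPKM in the WT samples and 22.5, 21.4 and 21.9 FPKM in the Gsdmd-/- samples (log2 change 0.42, SE 0.0433, adjusted p = 2.44e-06). All Gsdmd-/- samples were above all WT samples, and the rise was 0.24 with the trend removed (adjusted p = 0.000366) and 0.22 after rescaling to TPM (adjusted p = 0.000959). Kat8, of the MOF acetyltransferase, was at 6.64, 6 and 5.59 FPKM in the WT samples and 8.24, 9.91 and 7.8 FPKM in the Gsdmd-/- samples. It rose without overlap of the groups (log2 change 0.44, SE 0.0836, adjusted p = 0.000438), with 1 Gsdmd-/- sample well above the others, and missed the threshold once the trend was removed (0.12, adjusted p = 0.223). Kat5, of the TIP60 acetyltransferase, was at 19.5, 18.3 and 18.9 FPKM in the WT samples and 21.6, 21.7 and 21 FPKM in the Gsdmd-/- samples. Its rise was small (log2 change 0.17, SE 0.0423, adjusted p = 0.00263), and the sign turned in TPM (-0.04) and with the trend removed (-0.09, adjusted p = 0.0753, and 0.0325 without WT replicate 2). Kat7 and Kat14, at 11.5 ± 0.391 and 10.9 ± 0.445 FPKM and at 14.3 ± 1.13 and 14 ± 0.26 FPKM in WT and Gsdmd-/- (mean ± SD, n = 3 each, as in the rest of the text), did not pass (adjusted p = 0.2 and 0.716). In TPM Kat7 and Kat14 were lower (-0.29 and -0.24, adjusted p = 0.000355 and 0.00247). Kat6b stayed under 0.5 FPKM in every sample and was not tested.

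**Figure D4:**
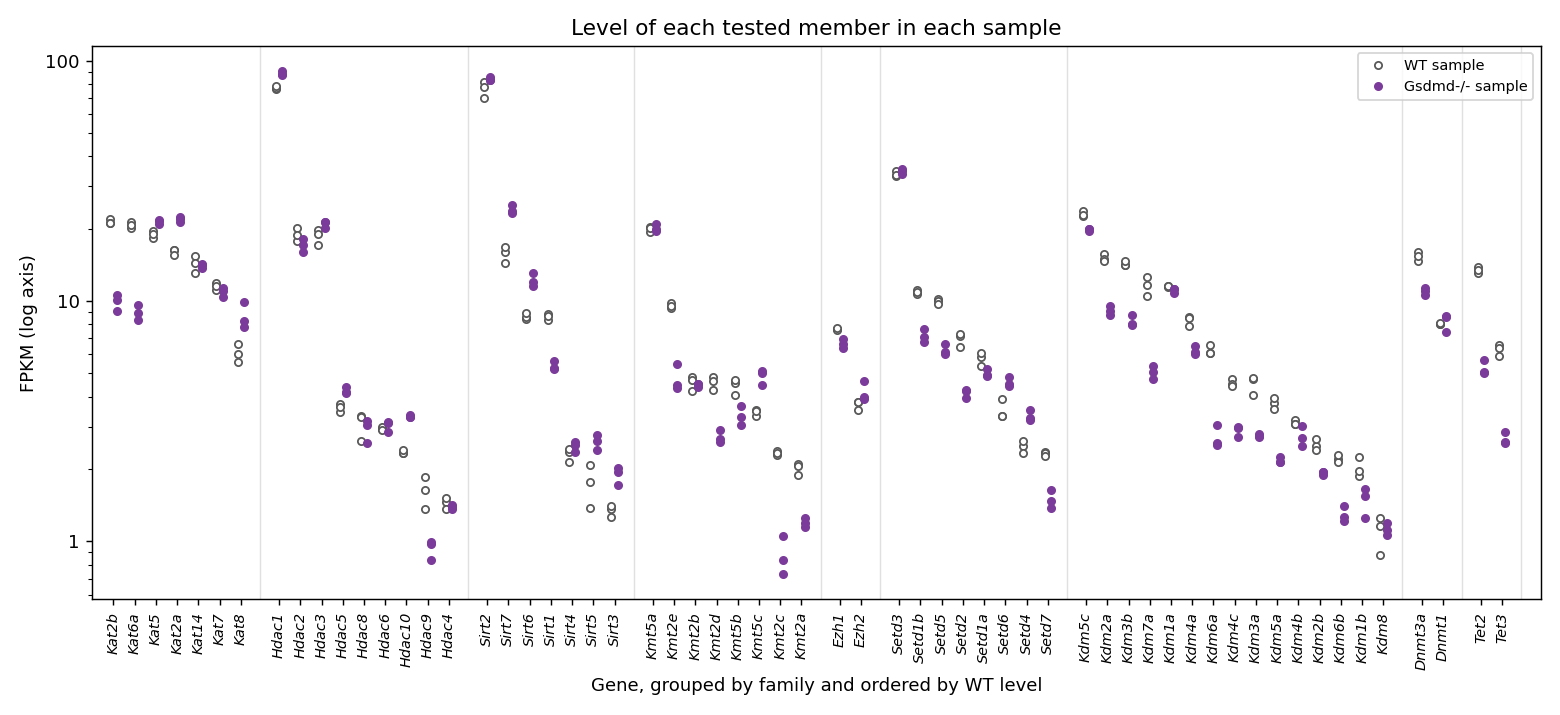
FPKM of each of the 60 tested enzymes in each sample on a log axis, grouped by family and ordered within a family by the WT mean, with open circles for WT and filled circles for Gsdmd-/- samples. Hdac1, Sirt2 and Setd3 are the most abundant, and the gap between groups is widest for Kat6a, Kat2b, Kmt2c, Kdm6a, Kdm7a, Tet2 and Tet3.

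Deacetylases of the Hdac family went both ways. Of 9 tested genes 4 rose and 2 fell, with a median log2 change of 0.03, in TPM 1 rose and 3 fell, and removal of the trend left 2 rises and 0 falls. Hdac1, a catalytic subunit of the Sin3, NuRD and CoREST corepressor complexes, was the most abundant enzyme of all, at 76, 77.2 and 78.4 FPKM in the WT samples and 90.6, 88.1 and 87.6 FPKM in the Gsdmd-/- samples. Its groups did not overlap (log2 change 0.20, SE 0.03, adjusted p = 6.88e-05), but the log2 change was -0.02 in TPM and 0.03 with the trend removed, neither past the threshold (adjusted p = 0.57 and 0.263). Its partner Hdac2 was at 20.1, 17.8 and 18.9 FPKM in the WT samples and 18.1, 16.1 and 17.1 FPKM in the Gsdmd-/- samples. The groups overlapped, and the log2 change was -0.14 (adjusted p = 0.0403). It was -0.36 in TPM (adjusted p = 7.84e-05) and 0.11 with the trend removed (adjusted p = 0.0685). In the latter fit it passed without WT replicate 1 or Gsdmd-/- replicate 2 (0.15 in both, adjusted p = 0.0369 and 0.0363). As deposited, without WT replicate 1, WT replicate 3, Gsdmd-/- replicate 2 or Gsdmd-/- replicate 3, Hdac2 did not pass (adjusted p = 0.164, 0.0786, 0.159 and 0.0797).

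Hdac3, the deacetylase of the NCoR and SMRT corepressors, was at 17.1, 19.7 and 18.9 FPKM in the WT samples and 21.3, 20.2 and 21.3 FPKM in the Gsdmd-/- samples. It was higher (log2 change 0.16, SE 0.0535, adjusted p = 0.0142), with all Gsdmd-/- samples above the WT samples by a narrow gap. It did not pass without WT replicate 1 (adjusted p = 0.0692) or in TPM (log2 change -0.05, adjusted p = 0.437), and was at -0.01 with the trend removed. Hdac10 was at 2.33, 2.34 and 2.39 FPKM in the WT samples and 3.3, 3.28 and 3.36 FPKM in the Gsdmd-/- samples (log2 change 0.36, SE 0.0614, adjusted p = 0.000173), a rise with very little spread within groups that missed the threshold once the trend was removed (0.09, adjusted p = 0.176). Hdac5, a class IIa deacetylase that shuttles between nucleus and cytoplasm, was at 3.72, 3.45 and 3.61 FPKM in the WT samples and 4.17, 4.37 and 4.14 FPKM in the Gsdmd-/- samples. Its rise (log2 change 0.19, SE 0.0608, adjusted p = 0.0142) was 0.21 with the trend removed (adjusted p = 0.0103), but 0.01 in TPM (adjusted p = 0.905), and the call was lost without Gsdmd-/- replicate 2 (adjusted p = 0.0503).

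Hdac4, another class IIa gene with a transcript of 8100 bases, was at 1.46, 1.51 and 1.37 FPKM in the WT samples and 1.39, 1.36 and 1.42 FPKM in the Gsdmd-/- samples. The groups overlapped and the change was -0.03 (adjusted p = 0.666), whereas with the trend removed it was 0.30 (adjusted p = 0.00204). Hdac9, with means of 1.62 ± 0.245 and 0.937 ± 0.0839 FPKM in WT and Gsdmd-/-, fell (log2 change -0.43, adjusted p = 0.000514) and was at 0.11 with the trend removed (adjusted p = 0.279). Hdac9 entered the test on its WT samples alone, since all Gsdmd-/- samples were under 1 FPKM. The X-linked Hdac6 and Hdac8 did not pass as deposited (adjusted p = 0.665 and 0.609), and Hdac8 was lower in TPM (-0.25, adjusted p = 0.0408). Hdac7 and Hdac11 were under 1 FPKM in every sample and were not tested.

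Sirtuins were mostly higher as deposited, 5 of 7 tested genes against 1 that fell, but the family's direction depended on the scale. Their median transcript length was 1891 bases, and 63.9% of all tested genes under 3000 bases were higher. In TPM 3 sirtuins rose and 1 fell, whereas removal of the trend left 2 rises and 3 falls, the median going from 0.30 to -0.06. Sirt7, a nuclear and nucleolar deacylase with a transcript of 1727 bases, was at 16, 16.7 and 14.5 FPKM in the WT samples and 23.6, 25.1 and 23.3 FPKM in the Gsdmd-/- samples. It had the largest rise of all tested enzymes on the log2 scale (log2 change 0.58, SE 0.0553, adjusted p = 1.31e-06), with wide separation of the groups. With the trend removed the rise was 0.15 (adjusted p = 0.0202), and in that fit it did not pass without WT replicate 3 (0.10, adjusted p = 0.0819) or without Gsdmd-/- replicate 2 (0.12, adjusted p = 0.074). Sirt6, a nuclear deacylase tied to DNA repair and glycolytic gene control, was at 8.39, 8.57 and 8.94 FPKM in the WT samples and 13.1, 12 and 11.6 FPKM in the Gsdmd-/- samples (log2 change 0.45, SE 0.0555, adjusted p = 1.14e-05). Its groups were well apart, and it missed the threshold once the trend was removed (0.06, adjusted p = 0.371).

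Sirt1, the nuclear deacetylase that acts on p53 and NF-kB, was the sirtuin that fell. It was at 8.37, 8.83 and 8.67 FPKM in the WT samples and 5.63, 5.29 and 5.2 FPKM in the Gsdmd-/- samples (log2 change -0.59, SE 0.0553, adjusted p = 1.07e-06), and each Gsdmd-/- sample was below every WT sample. The fall was -0.25 with the trend removed (adjusted p = 0.00291) and -0.84 in TPM (adjusted p = 1.04e-08), so its direction held on each of these scales. Sirt5, a mitochondrial desuccinylase, was at 1.76, 1.38 and 2.08 FPKM in the WT samples and 2.61, 2.77 and 2.39 FPKM in the Gsdmd-/- samples. Its WT samples were spread widely, yet all Gsdmd-/- samples were higher (log2 change 0.40, SE 0.0932, adjusted p = 0.00201), with 0.38 after removal of the trend (adjusted p = 0.00468) and 0.29 in TPM (adjusted p = 0.0276). An estimated 67 fragments in the lowest sample lie behind the Sirt5 values. Sirt3, the main mitochondrial deacetylase, had means of 1.34 ± 0.0764 and 1.89 ± 0.155 FPKM in WT and Gsdmd-/- (log2 change 0.30, adjusted p = 0.00222), and it missed the threshold once the trend was removed (-0.06). The cytosolic Sirt2, with means of 76.6 ± 5.81 and 83.8 ± 1.31 FPKM, was higher as deposited (0.13, adjusted p = 0.0262) and lower with the trend removed (-0.14, adjusted p = 0.0183). Sirt4 did not pass as deposited (0.08, adjusted p = 0.327) and was lower with the trend removed (-0.24, adjusted p = 0.00651).

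Of 18 tested genes with a Kmt, Ezh or Setd symbol 11 fell and 3 rose, with a median log2 change of -0.25. With the trend removed 5 fell and 2 rose (median -0.03). The count is by symbol and includes genes not known here as histone methyltransferases. Proteins of the Kmt2 group are the catalytic subunits of COMPASS-like complexes at promoters and enhancers or related SET-domain proteins. In this group 4 of 5 genes fell. Their transcripts ran from 7317 to 19823 bases, and 81.3% of all tested genes over 6000 bases were lower as deposited. Kmt2e, which encodes a SET-domain chromatin protein of that group, was at 9.85, 9.32 and 9.52 FPKM in the WT samples and 4.36, 4.47 and 5.46 FPKM in the Gsdmd-/- samples. Its groups were far apart (log2 change -0.88, SE 0.0727, adjusted p = 3.87e-07), with 1 Gsdmd-/- sample nearer to WT than the others. Kmt2c, of an enhancer methyltransferase, was at 2.38, 2.29 and 2.34 FPKM in the WT samples and 0.84, 0.73 and 1.05 FPKM in the Gsdmd-/- samples. It fell to 0.374 of WT (log2 change -0.84, SE 0.0784, adjusted p = 1.15e-06), and since 1 of the 3 Gsdmd-/- samples reached 1 FPKM, it entered the test mainly on its WT level. Kmt2d, the paralog of Kmt2c, was at 4.82, 4.27 and 4.65 FPKM in the WT samples and 2.67, 2.6 and 2.9 FPKM in the Gsdmd-/- samples (log2 change -0.58, SE 0.067, adjusted p = 6.67e-06), with no overlap. With the trend removed the values were -0.38 for Kmt2e, -0.30 for Kmt2c and -0.34 for Kmt2d, each past the threshold.

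Kmt2a, which encodes MLL, was at 2.1, 1.89 and 2.06 FPKM in the WT samples and 1.19, 1.15 and 1.25 FPKM in the Gsdmd-/- samples. It fell as deposited without overlap (log2 change -0.46, SE 0.0689, adjusted p = 6.75e-05) but was at -0.01 with the trend removed (adjusted p = 0.88); its transcript is 16470 bases long. Kmt2b did not pass as deposited (-0.03, adjusted p = 0.706). It was lower in TPM (-0.23, adjusted p = 0.012) and higher with the trend removed (0.18, adjusted p = 0.0207). The histone H4 methyltransferase genes differed among themselves. Kmt5c was at 3.52, 3.33 and 3.5 FPKM in the WT samples and 5.11, 5.04 and 4.48 FPKM in the Gsdmd-/- samples and rose with no overlap (log2 change 0.40, SE 0.0654, adjusted p = 0.000132), without passing after removal of the trend (0.14, adjusted p = 0.0787, and 0.0337 without Gsdmd-/- replicate 3). Kmt5b fell by 0.33 on the log2 scale (adjusted p = 0.00162) and was at 0.08 with the trend removed. Kmt5a, of the enzyme that monomethylates histone H4 in dividing cells, had means of 19.9 ± 0.522 and 20.2 ± 0.673 FPKM and did not pass (adjusted p = 0.746), but it was lower in TPM (-0.20, adjusted p = 0.00161).

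Ezh2 and Ezh1 are the alternative catalytic subunits of Polycomb repressive complex PRC2. Ezh2, the form typical of dividing cells, was at 3.82, 3.8 and 3.53 FPKM in the WT samples and 4, 3.93 and 4.63 FPKM in the Gsdmd-/- samples. All Gsdmd-/- samples were above all WT samples, but the difference did not pass (log2 change 0.14, SE 0.0699, adjusted p = 0.0966), and it was -0.05 in TPM and 0.25 with the trend removed (adjusted p = 0.00646). Ezh1, the form of resting cells, was at 7.63, 7.59 and 7.71 FPKM in the WT samples and 6.93, 6.37 and 6.61 FPKM in the Gsdmd-/- samples. It was slightly lower with no overlap (log2 change -0.18, SE 0.0538, adjusted p = 0.0091) and missed the threshold once the trend was removed (-0.06, adjusted p = 0.33). Beside these values, 18 of 25 proliferation genes were higher and 2 lower as deposited, and 18 higher and 1 lower with the trend removed.

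In the Setd family 5 of 8 genes fell and 2 rose as deposited, in TPM 6 fell and 0 rose, and with the trend removed 2 fell and 0 rose. Setd2, which methylates histone H3 along transcribed gene bodies, was at 7.19, 6.41 and 7.31 FPKM in the WT samples and 4.28, 3.96 and 4.21 FPKM in the Gsdmd-/- samples. The groups did not overlap (log2 change -0.63, SE 0.0643, adjusted p = 2.42e-06), but with the trend removed the change was -0.06 (adjusted p = 0.399). Setd5, of a SET-domain chromatin protein, was at 10.2, 10 and 9.68 FPKM in the WT samples and 6, 6.16 and 6.65 FPKM in the Gsdmd-/- samples (log2 change -0.60, SE 0.0555, adjusted p = 1.1e-06), a fall that was -0.23 with the trend removed (adjusted p = 0.0019). Setd1b, a COMPASS methyltransferase with means of 10.9 ± 0.226 and 7.16 ± 0.455 FPKM in WT and Gsdmd-/-, fell (log2 change -0.55) and was at -0.33 with the trend removed (adjusted p = 0.000136). Its paralog Setd1a was lower by a small margin (-0.17, adjusted p = 0.0265) and at 0.0017 with the trend removed, and 3523 bases of its exons are shared on the same strand with the gene model Gm49388. Setd7, a lysine methyltransferase of histone and other proteins, fell by 0.41 (adjusted p = 0.000169) and was at 0.04 with the trend removed.

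The short Setd4 and Setd6 transcripts rose. Setd6, of a methyltransferase that acts on the NF-kB subunit RelA, was at 3.34, 3.91 and 3.31 FPKM in the WT samples and 4.85, 4.54 and 4.43 FPKM in the Gsdmd-/- samples (log2 change 0.31, SE 0.0703, adjusted p = 0.00148). Setd4 was at 2.5, 2.33 and 2.62 FPKM in the WT samples and 3.2, 3.25 and 3.51 FPKM in the Gsdmd-/- samples (log2 change 0.31, SE 0.0668, adjusted p = 0.00108). Groups did not overlap for either gene, and with the trend removed the signs turned, to -0.07 and -0.05 (adjusted p = 0.365 and 0.538). In TPM neither passed (0.15 and 0.17, adjusted p = 0.102 and 0.0861). Setd3, of an enzyme known to methylate actin, was the most abundant of the family at 33.8 ± 0.864 and 34.7 ± 0.766 FPKM and did not pass (adjusted p = 0.378), but it was lower in TPM (-0.18, adjusted p = 0.00116).

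The histone demethylase genes that changed were all lower: 12 of 15 tested Kdm genes fell, 0 rose and 3 did not pass, with a median log2 change of -0.49. On the other scales the count of falls was 14 in TPM, 13 after median ratio scaling, 12 after quantile normalization and 8 with the trend removed, with 0 rises on each. Those 8, or 53.3% of the 15, stand beside 31.4% of all genes lower with the trend removed. Kdm7a, a Jumonji demethylase of silencing methyl marks (chromosome 6 at 39136620 to 39206773), was at 12.6, 10.5 and 11.7 FPKM in the WT samples and 5.05, 4.72 and 5.38 FPKM in the Gsdmd-/- samples. Every Gsdmd-/- sample was below every WT sample, at 0.436 of the WT mean (log2 change -1.05, SE 0.0695, adjusted p = 5.74e-08), and the fall was -0.33 with the trend removed (adjusted p = 0.000279). Kdm6a, the X-linked gene of UTX, which removes the Polycomb methyl mark, was at 6.08, 6.09 and 6.55 FPKM in the WT samples and 2.56, 2.51 and 3.04 FPKM in the Gsdmd-/- samples. It fell to 0.433 of WT (log2 change -0.97, SE 0.0709, adjusted p = 1.34e-07), with -0.45 after removal of the trend (adjusted p = 9.57e-05). Its relative Kdm6b, of JMJD3, which is known to be induced in activated macrophages, was at 2.2, 2.15 and 2.29 FPKM in the WT samples and 1.4, 1.26 and 1.22 FPKM in the Gsdmd-/- samples (log2 change -0.49, SE 0.0688, adjusted p = 3.89e-05). The groups were apart, and the fall was -0.35 with the trend removed (adjusted p = 0.00113).

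Kdm3b, a demethylase of the silencing mark on histone H3, was at 14.2, 14.1 and 14.6 FPKM in the WT samples and 7.92, 8 and 8.71 FPKM in the Gsdmd-/- samples (log2 change -0.73, SE 0.0514, adjusted p = 9.24e-08), and remained at -0.48 with the trend removed (adjusted p = 3.93e-06). Its exons share 3468 bases with the noncoding gene Gm26538 on the opposite strand. Kdm2a, which binds unmethylated CpG islands, was at 15.7, 14.9 and 14.6 FPKM in the WT samples and 9.11, 8.72 and 9.56 FPKM in the Gsdmd-/- samples (log2 change -0.67, SE 0.0516, adjusted p = 2.16e-07). Both genes were lower in every Gsdmd-/- sample than in any WT sample, and Kdm2a was at -0.20 with the trend removed (adjusted p = 0.00234). Kdm3a, Kdm4a and Kdm4c fell by 0.56, 0.37 and 0.52, and were at -0.21, -0.26 and -0.19 with the trend removed, each past the threshold. Kdm5a, which removes the methyl mark of active promoters, fell by 0.58 as deposited and was at 0.06 with the trend removed (adjusted p = 0.393). Kdm5c, Kdm2b and Kdm1b fell by 0.21, 0.27 and 0.29 and missed the threshold once the trend was removed (0.06, -0.08 and 0.11).

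Kdm1a, of the flavin-dependent demethylase LSD1, was at 11.4, 11.6 and 11.5 FPKM in the WT samples and 11.2, 10.8 and 11.2 FPKM in the Gsdmd-/- samples. The values were close (log2 change -0.05, SE 0.0461, adjusted p = 0.334), and in TPM the change was -0.27 (adjusted p = 0.00044). Kdm4b and Kdm8 did not pass on the deposited or the trend-removed scale (adjusted p = 0.0776 and 0.821 as deposited). Kdm8 was near the filter, with 2 WT samples and 3 Gsdmd-/- samples at or over 1 FPKM. Kdm4d, Kdm5b and Kdm5d were under 1 FPKM throughout and were not tested.

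Among tested enzymes of DNA methylation, the erasers Tet2 and Tet3 and the writer Dnmt3a fell as deposited. With the trend removed only Tet2 and Tet3 were lower. Tet2, which oxidises methylcytosine and is known to restrain inflammatory cytokine genes in macrophages (chromosome 3 at 133463677 to 133545136), was at 13.9, 13.1 and 13.5 FPKM in the WT samples and 5.07, 5.02 and 5.71 FPKM in the Gsdmd-/- samples. It had the largest fall of the tested enzymes on the deposited log2 scale, to 0.391 of the WT mean (log2 change -1.21, SE 0.058, adjusted p = 5.4e-09), with no overlap and small spread. Tet3 was at 6.56, 5.9 and 6.37 FPKM in the WT samples and 2.58, 2.56 and 2.86 FPKM in the Gsdmd-/- samples and fell to 0.425 of WT (log2 change -0.99, SE 0.0655, adjusted p = 5.96e-08). With the trend removed the falls were -0.65 for Tet2 and -0.63 for Tet3 (adjusted p = 7.44e-07 and 3.35e-06), and in TPM they were -1.48 and -1.29. Tet1 was at most 0.03 FPKM in any sample and was not tested.

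Dnmt3a, the de novo DNA methyltransferase, was at 16.1, 14.7 and 15.4 FPKM in the WT samples and 10.6, 11 and 11.3 FPKM in the Gsdmd-/- samples. It fell with no overlap (log2 change -0.45, SE 0.0502, adjusted p = 4.88e-06) and missed the threshold once the trend was removed (-0.07, adjusted p = 0.193). Dnmt1, which copies methylation after DNA replication, was at 8.01, 8.04 and 8.14 FPKM in the WT samples and 8.7, 7.44 and 8.57 FPKM in the Gsdmd-/- samples. The Gsdmd-/- samples lay on both sides of the WT samples (log2 change 0.02, SE 0.0617, adjusted p = 0.729), and the change was -0.18 in TPM (adjusted p = 0.027) and 0.23 with the trend removed (adjusted p = 0.00491). Dnmt3b and the catalytically inactive cofactor gene Dnmt3l were at most 0.58 FPKM and were not tested.

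Other chromatin genes, listed by complex with earlier results of these data known, were also more often lower than higher. Median transcript lengths of the lists ran from 3307 bases (COMPASS partners) to 4593 bases (acetyltransferases and partners), beside 3024 bases over all tested genes. Of 130 tested partners, readers and further enzymes, 70 fell and 32 rose, and 56 were lower and 32 higher with the trend removed. Beside this and each list below, 36.9% of all genes were lower and 40.6% higher as deposited. With the trend removed 31.4% of all genes were lower and 30.0% higher. Among acetyltransferases outside the Kat symbols and their partners 18 of 29 fell and 6 rose, and 17 fell and 5 rose with the trend removed. Ep300, the gene of the acetyltransferase p300 that marks enhancers, fell from 20.7 ± 0.506 FPKM in WT to 8.03 ± 0.754 FPKM in Gsdmd-/- (log2 change -1.27, adjusted p = 5.15e-09) and was at -0.86 with the trend removed. Kansl1, a scaffold of the MOF complex, fell from 11.3 ± 0.214 FPKM in WT to 6.16 ± 0.332 FPKM in Gsdmd-/- (log2 change -0.78, adjusted p = 8.37e-08). Sgf29, a SAGA subunit, rose from 5.31 ± 0.451 FPKM in WT to 10.6 ± 0.641 FPKM in Gsdmd-/- (log2 change 0.87, adjusted p = 1.92e-07). Tada3, an adaptor of the GCN5 and PCAF complexes, went from 9.28 ± 0.207 FPKM in WT to 12.6 ± 0.206 FPKM in Gsdmd-/- (log2 change 0.40, adjusted p = 8.38e-06). These 4 kept their direction with the trend removed.

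HDAC corepressor genes fell in 12 and rose in 7 of 24, and 9 fell and 6 rose after removal of the trend. Rcor1, the CoREST scaffold, fell from 6.75 ± 0.407 FPKM in WT to 3.04 ± 0.174 FPKM in Gsdmd-/- (log2 change -0.94, adjusted p = 8.53e-08). Tbl1x, of the NCoR complex, went from 17.2 ± 0.873 FPKM in WT to 9.26 ± 0.5 FPKM in Gsdmd-/- (log2 change -0.83, adjusted p = 6.26e-08), so both were lower. Mbd3, of NuRD, rose from 32.2 ± 1.87 FPKM in WT to 48 ± 1.94 FPKM in Gsdmd-/- (log2 change 0.56, adjusted p = 4.29e-07). Gps2, also of the NCoR complex, went from 30.7 ± 2.8 FPKM in WT to 48 ± 1.21 FPKM in Gsdmd-/- (log2 change 0.63, adjusted p = 7.92e-07). Rcor1 and Tbl1x were at -0.60 and -0.45 with the trend removed, past the threshold, while Gps2 was at 0.13 and Mbd3 did not pass (0.07).

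Among COMPASS partners 6 of 13 fell and 4 rose, and 4 fell and 3 rose after removal of the trend. Ncoa6 fell from 8.7 ± 0.512 FPKM in WT to 4.47 ± 0.375 FPKM in Gsdmd-/- (log2 change -0.83, adjusted p = 3.37e-07). Hcfc1, a subunit shared by several complexes, went from 17.1 ± 0.446 FPKM in WT to 9.61 ± 0.438 FPKM in Gsdmd-/- (log2 change -0.77, adjusted p = 4.76e-08). Dpy30, a core subunit of all COMPASS-like complexes, rose from 24.6 ± 0.444 FPKM in WT to 33.6 ± 0.31 FPKM in Gsdmd-/- (log2 change 0.43, adjusted p = 4.6e-07). Pagr1a, a subunit of the complexes of Kmt2c and Kmt2d, was higher too, from 10.7 ± 1.13 FPKM in WT to 17.9 ± 1.21 FPKM in Gsdmd-/- (log2 change 0.69, adjusted p = 3.18e-06). Among PRC2 partners 5 of 10 fell and 3 rose, but after removal of the trend 2 fell and 3 rose (median log2 change from -0.12 to 0.02). Suz12, a core subunit that PRC2 needs for activity, fell from 15.9 ± 1.29 FPKM in WT to 8.49 ± 0.419 FPKM in Gsdmd-/- (log2 change -0.83, adjusted p = 1.66e-07) and was at -0.43 with the trend removed. Aebp2, an accessory subunit, fell from 8.86 ± 0.242 FPKM in WT to 5.67 ± 0.231 FPKM in Gsdmd-/- (log2 change -0.56, adjusted p = 1.54e-06) and was at 0.00. Phf1 and Epop, further accessory subunits, rose by 0.38 and 0.41 and missed the threshold once the trend was removed.

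Among PRC1 genes 7 of 13 fell and 3 rose, and with the trend removed 7 fell and 1 rose. Pcgf3 fell from 11 ± 0.421 FPKM in WT to 4.64 ± 0.404 FPKM in Gsdmd-/- (log2 change -1.09, adjusted p = 2.41e-08). Bmi1, a Polycomb ring finger gene like Pcgf3, went from 11.3 ± 0.806 FPKM in WT to 6.16 ± 0.486 FPKM in Gsdmd-/- (log2 change -0.79, adjusted p = 4.55e-07). Phc2 rose by 0.14 and missed the threshold after removal of the trend (0.03, adjusted p = 0.205), and Ring1 rose by 0.21 as deposited and was at -0.19 with the trend removed. Demethylases outside the Kdm symbols fell in 5 and rose in 1 of 7, and 6 fell and 0 rose after removal of the trend. Jmjd1c, a Jumonji-domain gene related to Kdm3a, fell from 14.4 ± 0.502 FPKM in WT to 6.06 ± 0.779 FPKM in Gsdmd-/- (log2 change -1.13, adjusted p = 4.96e-08). Phf8, related to Kdm7a, went from 8.78 ± 0.208 FPKM in WT to 4.59 ± 0.0557 FPKM in Gsdmd-/- (log2 change -0.81, adjusted p = 5.85e-08). Jmjd6 was the member that rose (0.41), and it missed the threshold once the trend was removed (-0.01).

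Other methyltransferases fell in 8 and rose in 6 of 18, but after removal of the trend 6 fell and 7 rose (median from -0.04 to 0.02). Nsd3 fell from 67 ± 1.07 FPKM in WT to 37 ± 0.982 FPKM in Gsdmd-/- (log2 change -0.84, adjusted p = 2.18e-09). Ash1l, of a methyltransferase that opposes Polycomb silencing, went from 4.34 ± 0.266 FPKM in WT to 1.88 ± 0.119 FPKM in Gsdmd-/- (log2 change -0.89, adjusted p = 2.06e-07). Prmt1, the main arginine methyltransferase, rose from 34.2 ± 1.6 FPKM in WT to 47.3 ± 0.397 FPKM in Gsdmd-/- (log2 change 0.46, adjusted p = 5.46e-07), and Smyd2 by 0.44, though Smyd2 missed the threshold after removal of the trend (0.05, adjusted p = 0.414). Readers of histone or DNA marks fell in 9 and rose in 2 of 17 as deposited, but with the trend removed 5 fell and 7 rose. Brd9, of a SWI/SNF complex, and Trim28, a corepressor, rose by 0.50 and 0.46, and Phf6 and Trim33 fell by 0.74 and 0.79.

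Exons of several members overlap another gene, and how the counting treated strand is not stated, so reads of such pairs cannot be told apart. The longest shared exonic stretch was 3536 bases, for Hdac4 with Gm26720, next to those of Setd1a and Kdm3b given above. Kmt2e shares 972 bases with Srpk2, Kmt5b 927 bases with Gm16066 and Kat14 693 bases on the same strand with Pet117. Kdm2b shares 627 bases with Rnf34, Kdm1b 505 bases with Dek and Kat5 426 bases with Rnaseh2c. Sirt3 shares 418 bases with Ric8a and 342 bases with Psmd13, and Kmt2a 378 bases with AC061963.1. Shorter shares were found among others for Kdm7a (287 bases with 4930599N23Rik), Kdm6b (286 bases with Kdm6bos), Kmt2c (274 bases with Gm42585) and Ezh2 (174 bases with Gm26625). Dnmt3a shares 133 bases with Dnmt3aos, Sirt7 124 bases with Mafg and Kat8 122 bases with Prss8. For Sirt1 and Tet2 it was 65 and 43 bases, and no overlap was found for Kat2b, Kat6a, Kat2a, Tet3 or Kdm6a. The values of the overlapping genes are uncertain to that extent.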

How the data were processed

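Per the labels' protocols, macrophages were sorted from colons and RNA was sequenced on a BGISEQ-500. The submitters' processing notes name Bowtie2 2.2.5 and GRCm38.p6. Which counter and annotation were used, and whether strand was kept, is not stated in those sources. The authors deposited 1 normalized value per gene and sample, read here as FPKM since the header gives no unit. Sums differ between the groups, at 476271, 485411 and 478136 in the WT samples and 563211, 565388 and 551502 in the Gsdmd-/- samples. The size of 1 step among low values depends on transcript length. Depth was estimated from these steps in 1787 genes with 1 RefSeq transcript, so no exact count stands behind a value. Date-like symbols were replaced through the gene identifier in 25 genes.

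Genes with at least 1 FPKM in at least 3 samples were tested with limma 3.58.1 (trend and robust settings, R 4.3.3) on log2(FPKM + 1), two-sided, with Benjamini-Hochberg adjustment over all 10005 tested genes. Rose and fell mean an adjusted p under 0.05. This scale understates the change of low genes. An exact permutation test of 3 against 3 cannot go below 0.1. Length and GC came from the longest GENCODE M21 protein-coding transcript (98.5% of tested genes). Their trend was a natural spline with 5 degrees of freedom on each, fitted to each sample's deviation from the gene means. In simulated data for this comparison over 10005 genes, the test recovered 93% of log2 changes of 0.5 with 0.163% of unchanged genes called. With a simulated trend 72.6% of unchanged genes were called, and with its removal 0.186% of 9853. In the data themselves 61.3% of 9853 genes were called after removal. A trend put into simulated data and then removed cannot show which calls in these data came from a trend. Alternatives were the pseudocount, filter, scaling, trend, limma settings, replicate block and leaving out each sample.

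Members and gene lists were chosen with earlier results of these data known. Members were described in full by rule: in each class up to 7 largest rises and 7 largest falls with groups apart and a mean of at least 2 FPKM, and 20 genes whatever their p. Of each partner list up to 2 genes with the smallest p in each direction were named, and other members are given by their means or changes. Coordinates are 1-based RefSeq positions in GRCm38.p6.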

Additional observations from a re-analysis of the deposited data

How the results depend on the processing

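Counts and the median under the pseudocount of 0.1, median ratio scaling, quantile normalization, plain limma settings and leaving out each sample stayed within 1.5 times the main counts and within the spread between replicates of the main median. In TPM, 7 members were higher (3 writers, 4 erasers) and the median was -0.37, where the median of all genes went from 0.03 to -0.17 and 2498 genes were higher and 5104 lower, 32.9% of calls higher against 52.4%. Under the stricter filter of 5 FPKM, which tested 33 members, 8 were higher and 19 lower (3 and 9 writers, 5 and 10 erasers). With no filter the median was -0.074. After removing the trend on length and GC, 8 members were higher and 20 lower, 7 writers were lower, 4 erasers were higher, and the median was -0.057. Leaving out each sample in that fit, an alternative chosen after seeing the data, gave 6 to 9 members higher, 18 to 21 lower, 3 to 5 writers higher, 7 to 8 writers lower, 3 to 5 erasers higher, 11 to 14 erasers lower and medians from -0.061 to -0.043 (-0.050, -0.047 and -0.061 without WT replicates 1, 2 and 3, -0.048, -0.043 and -0.048 without Gsdmd-/- replicates 1, 2 and 3).

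Of the 60 tested members, the sign of the log2 change turned in 11 in TPM, in 19 with the trend removed (14 of them past the threshold as deposited, and Sirt2 on both scales), in 5 after quantile normalization and in 2 after median ratio scaling. Among the 36 members described in full, signs turned in TPM for Dnmt1 (-0.18), Ezh2 (-0.047), Hdac1 (-0.021), Hdac3 (-0.049) and Kat5 (-0.040). Among the same 36 they turned with the trend removed for Hdac2 (0.11), Hdac3 (-0.0080), Hdac4 (0.30), Kat5 (-0.088), Setd4 (-0.050) and Setd6 (-0.069), and after quantile normalization for Hdac4 (0.018). Dnmt1 also turned after median ratio scaling (-0.0091) and without Gsdmd-/- replicate 1 or 3 (-0.012 and -0.0024, against 0.088 without replicate 2). The cause was not tested.

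With the replicate number as a block, 15 members were higher and 31 lower, as without it. Same-numbered samples deviated with correlations of -0.08, 0.13 and 0.01 across genes, so the numbers were not taken as pairs. The lowest sample of a tested member held an estimated 43 fragments (Sirt3 and Kdm8), which limits the precision of the low genes.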

Other observations

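The Y-linked demethylase gene Kdm5d was at 0 or 0.01 FPKM in all 6 samples, and the Y-linked Ddx3y was at most 0.03 FPKM, Uty at most 0.13 FPKM and Eif2s3y at most 0.39 FPKM. The labels used here give no sex. As deposited, the X-linked members Kdm5c and Kdm6a fell and Hdac6 and Hdac8 did not pass.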
